A study of Mus musculus with 20 samples.

Results

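The guanylate-binding proteins (GBPs) are large GTPases, and the 10 mouse genes Gbp2 to Gbp11 were followed here in the liver after IL-1β, an inflammatory cytokine. The 10 genes were taken by their gene symbols from the 37681 genes of each table of read counts, and all 10 passed the detection filter, as did 15578 genes in all. The RNA came from livers of 10 male C57/B6J mice aged 12 weeks, 5 given 20 µg/kg IL-1β (mice ILB_9577, ILB_9578, ILB_9579, ILB_9582 and ILB_9583) and 5 given saline and called untreated (UNT_9574, UNT_9575, UNT_9576, UNT_9580 and UNT_9584). Livers were collected 4 h later. Aliquots of the same RNA were sequenced as poly-A libraries on Illumina and on Ion Torrent, which gave 20 libraries. The reads of each platform were put through GSNAP, through STAR alone, or through STAR with Bowtie2 taking up what STAR had left unmapped (STAR + Bowtie2), so that there were 6 tables with 5 treated and 5 untreated libraries in each.

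GBPs belong to the dynamin superfamily of GTPases and are best known as products of interferon-stimulated genes. In infected cells they assemble on the membranes of intracellular pathogens and of the vacuoles that hold them, and they can promote inflammasome signaling. In the mouse their genes lie in a cluster on chromosome 3 and a cluster on chromosome 5. Because the RNA came from whole liver, a change in the number of expressing cells and a change in RNA per cell cannot be told apart.

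Illumina libraries held about 10568500 to 12008800 counted reads and Ion Torrent libraries about 12199500 to 16439700, after the authors had re-sampled each table separately. Levels in different tables are therefore set side by side as descriptions only. The hepatocyte markers were abundant in every library, with a summed level of 106603 to 124188 CPM (counts scaled by the library total) in untreated and 72015 to 81228 in treated mice in the Illumina GSNAP data. The 7 neutrophil markers summed to 0.687 to 2.51 CPM in untreated and 39.6 to 85.7 in treated mice. All 4 of the neutrophil markers that were detected were higher with IL-1β in every table by the edgeR test described below, with a median log2 fold change of 5.55 to 6.08. In the Illumina GSNAP data Ly6g, Ngp, Camp and Mpo had no reads in any untreated library. Ngp and Camp had higher means in treated mice in every table. Ly6g had lower means in treated mice with Illumina STAR + Bowtie2 (2.4 against 3.8 reads) and Ion Torrent GSNAP (2.4 against 5.6), and higher means elsewhere. Mpo averaged 0.4 reads in treated and 1 to 1.2 in untreated mice with Ion Torrent. The part of these cells in the Gbp values was not tested.

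On the NCBIM37 (mm9) gene models, Gbp5, Gbp7, Gbp3 and Gbp2 lie in that order on the plus strand of chromosome 3 (chr3:142159864-142300972 from the start of Gbp5 to the end of Gbp2). Gbp8, Gbp9, Gbp4, Gbp10, Gbp6 and Gbp11 lie on the minus strand of chromosome 5 (chr5:105443172-105772948). All 10 are annotated as protein coding. The genes on which the comparisons below turn are Gbp6 (ENSMUSG00000079362), Gbp10 (ENSMUSG00000054588), Gbp8 (ENSMUSG00000034438) and Gbp11 (ENSMUSG00000092021). Gbp11 has the shortest model, with 7 exons and 1329 bases, all of them coding, against 11 to 14 exon blocks and 2516 to 5552 exonic bases in the other members.

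The coding sequences of the chromosome 5 members resembled each other far more than those of chromosome 3. Over the 15 pairs on chromosome 5 the identity was 90.3 to 98.4% of aligned bases. The 6 pairs on chromosome 3 ranged from 63.1 to 78.7%, and the 24 pairs across the chromosomes from 62.1 to 76.8%. Gbp6 and Gbp10 were the closest pair, with 1806 of 1836 coding bases identical (98.4%) and an unbroken identical run of 421 bases. Shared windows were searched in protein-coding transcripts only, so copies in pseudogenes or noncoding transcripts were not looked for. Of the 100-base windows in the Gbp6 transcripts, 64.4% also occurred without a mismatch in transcripts of another gene, mostly of Gbp10. For Gbp10 the share was 65.0%, mostly of Gbp6. Gbp11 followed with 10.8%, and the other 7 members had 0 to 3.33%. At a window of 50 bases the share was 80.0% for Gbp6, 78.7% for Gbp10 and 34.5% for Gbp11.

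**Figure D1:**
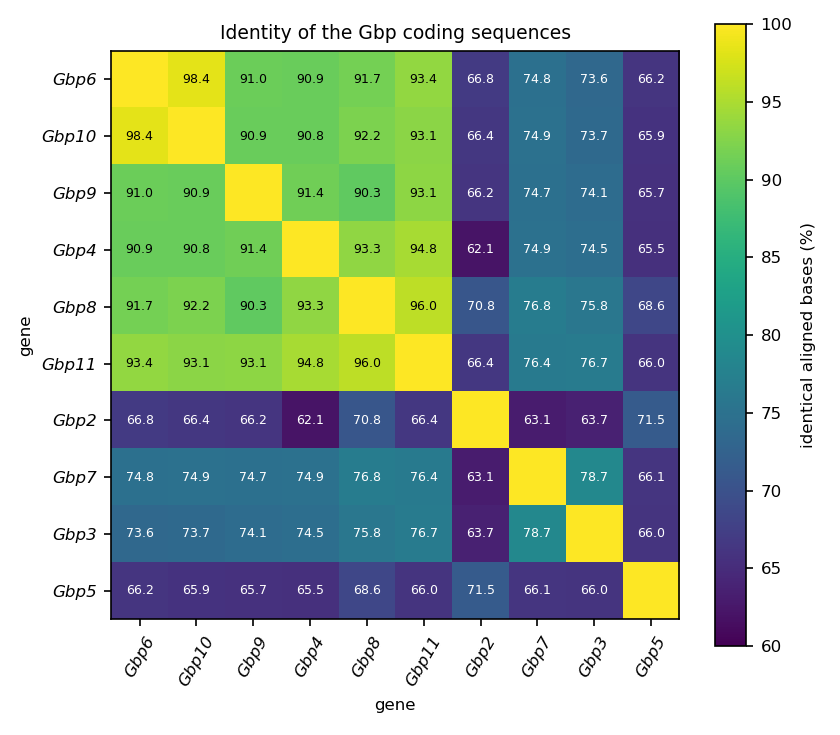
Percentage of identical aligned bases between the coding sequences of each pair of Gbp genes (gene models on mm9), with genes ordered by chromosome on both axes. The upper left block of 6 chromosome 5 genes lies between 90.3 and 98.4%, and every other pair lies below 79%.

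A stretch of coding sequence is printed to show how few bases separate these genes. It is the middle 125 bases of the longest Gbp11 exon with the aligned stretch of the other 5 chromosome 5 members, each within a single exon, on the minus strand of NCBIM37, and capitals mark bases that differ from Gbp11.
Gbp11, chr5:105756432-105756556: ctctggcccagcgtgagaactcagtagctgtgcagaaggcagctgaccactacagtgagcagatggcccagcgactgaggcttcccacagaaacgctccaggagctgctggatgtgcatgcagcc
Gbp8, chr5:105447659-105447783: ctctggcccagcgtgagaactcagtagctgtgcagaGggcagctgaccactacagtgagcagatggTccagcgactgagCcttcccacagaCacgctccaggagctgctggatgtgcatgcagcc
Gbp6, chr5:105705724-105705848: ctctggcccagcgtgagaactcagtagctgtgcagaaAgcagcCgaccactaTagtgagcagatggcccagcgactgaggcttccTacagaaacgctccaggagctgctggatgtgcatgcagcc
Gbp10, chr5:105649923-105650047: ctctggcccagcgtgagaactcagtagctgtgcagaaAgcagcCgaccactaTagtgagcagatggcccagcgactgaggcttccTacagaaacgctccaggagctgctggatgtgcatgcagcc
Gbp4, chr5:105550888-105551012: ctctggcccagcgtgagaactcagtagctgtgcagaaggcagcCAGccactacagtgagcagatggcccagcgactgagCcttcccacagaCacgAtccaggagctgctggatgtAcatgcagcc
Gbp9, chr5:105512670-105512794: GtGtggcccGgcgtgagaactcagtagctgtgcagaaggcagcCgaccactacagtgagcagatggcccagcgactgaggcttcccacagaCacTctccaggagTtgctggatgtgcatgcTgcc

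Gbp6 and Gbp10 were identical to each other throughout this window and differed from Gbp11 at 4 of 125 bases. Gbp8 also differed from Gbp11 at 4 bases, Gbp4 at 7 and Gbp9 at 8.

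Most of the family rose with IL-1β. Called genes are those with an adjusted p below 0.05 in edgeR's quasi-likelihood test over the 15578 detected genes of a table. With Illumina, 7 of the 10 members were called higher with each aligner, where 23.7% (GSNAP), 22.7% (STAR) and 22.9% (STAR + Bowtie2) of all detected genes were. With Ion Torrent, 9, 7 and 9 members were called higher, against 22.5%, 20.3% and 22.8% of all genes. Gbp2, Gbp3, Gbp5, Gbp6, Gbp7, Gbp9 and Gbp10 were called higher in all 6 tables, as were 17.3% of all detected genes. The counts of the treated and untreated mice did not overlap for these 7 genes in any table. The number of members whose treated counts all lay above the untreated ones was 7, 7 and 7 with Illumina and 8, 7 and 8 with Ion Torrent, against a background over all genes of 12.5%, 12.1% and 12.8%, and 11.2%, 10.2% and 11.6%. The rank test of the study (two-sided Mann-Whitney with Benjamini-Hochberg adjustment) called 7, 7, 7, 8, 7 and 9 members higher in the same order of tables, against 14.3%, 13.8%, 14.8%, 13.2%, 11.9% and 13.6% of all genes.

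**Figure D2:**
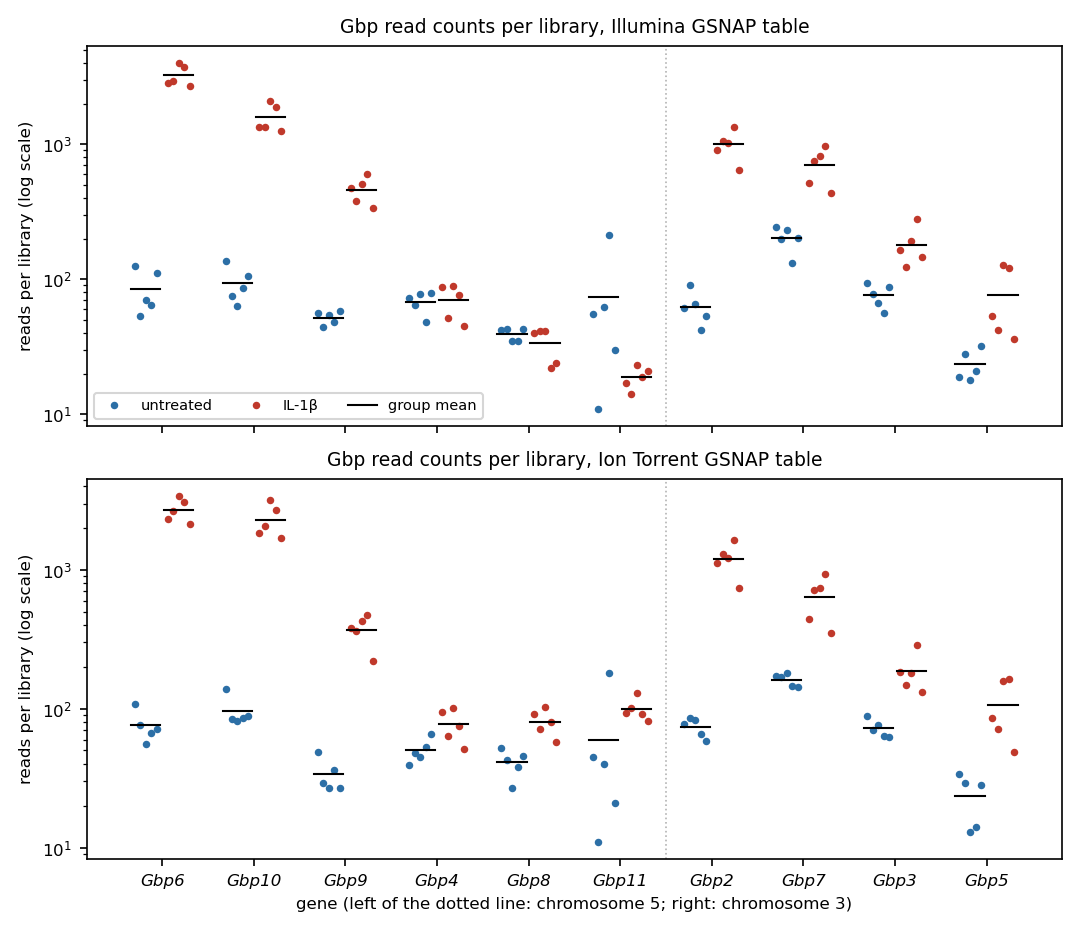
Reads per library (log scale) of the 10 Gbp genes in the Illumina GSNAP and the Ion Torrent GSNAP tables, with 1 point per mouse and a line at the mean of the 5 mice of each group. The treated mice lie above the untreated mice for 7 genes in both panels, by most for Gbp6, while Gbp4 and Gbp11 overlap in both and Gbp8 overlaps with Illumina only.

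Gbp6 had the largest response of the family. Together with Gbp10 it has been linked to defense of macrophages against intracellular bacteria. In the Illumina GSNAP data its counts were 2851, 2959, 4010, 3743 and 2690 in the treated mice and 125, 53, 70, 64 and 111 in the untreated mice. Every treated library thus held at least 2690 reads and no untreated library more than 125. The fitted log2 fold change was 5.43 ± 0.24 (SE, n = 5 per group, adjusted p = 7.84e-10), and over the 6 tables it was 5.31 to 5.61, or 39.7- to 48.9-fold.

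Gbp10, the near copy of Gbp6, rose by less. Its Illumina GSNAP counts were 1352, 1352, 2090, 1888 and 1254 in the treated and 137, 75, 63, 86 and 106 in the untreated mice. The log2 fold change was 4.26 ± 0.22 (adjusted p = 4.33e-09), and it was 4.23 to 4.30 with Illumina and 4.33 to 4.74 with Ion Torrent. Since the transcripts of this pair share most of their windows, the split of reads between them is uncertain. The models are nearly equal in length (4314 and 4320 exonic bases), so their read counts need no scaling by length. Untreated livers held about equal reads of both genes, with a median Gbp6 to Gbp10 ratio of 0.784 to 0.971 over the tables. In the treated mice the median ratio was 2.11, 2.36 and 2.30 in the 3 Illumina tables, and it was 1.26 with Ion Torrent GSNAP, 2.05 with Ion Torrent STAR and 1.60 with Ion Torrent STAR + Bowtie2. The highest treated ratio with Ion Torrent GSNAP (1.27) lay below the lowest of every Illumina table (1.92).

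Gbp2, a prenylated GBP of the chromosome 3 cluster that gathers on parasite vacuoles, rose from 61, 91, 65, 42 and 53 reads in the untreated mice to 902, 1055, 1029, 1351 and 645 in the treated mice (Illumina GSNAP). The log2 fold change of 4.17 ± 0.21 (adjusted p = 4.33e-09) was close to that of the other tables, which ran from 4.13 to 4.22, or 17.6- to 18.6-fold. It was the member least moved by platform or aligner in fold change.

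Gbp9 rose from 44 to 58 reads (median 54) in the untreated to 338 to 598 (median 471) in the treated mice. Its log2 fold change was 3.30 to 3.61 over the tables. Gbp7, which has been tied to the assembly of the phagocyte oxidase, had the highest median count of the family in the untreated liver, 202 reads (132 to 242). It reached 434 to 976 reads with IL-1β, with a log2 fold change of 1.94 to 2.13 over the tables.

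Gbp5, a prenylated GBP known for promoting NLRP3 inflammasome assembly, was the most variable of the responders among treated mice. Its Illumina GSNAP counts were 53, 42, 128, 122 and 36 with IL-1β against 19, 28, 18, 21 and 32 without. ILB_9583, the lowest treated mouse, lay only 4 reads above the highest untreated mouse. The log2 fold change was 1.86 ± 0.37 (adjusted p = 0.00079) and 1.86 to 2.31 over the tables. Gbp3 had the smallest rise of the 7 genes, from 56 to 94 reads to 123 to 277 reads, with a log2 fold change of 1.41 ± 0.21 (adjusted p = 8.08e-05) and 1.39 to 1.52 over the tables.

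**Figure D3:**
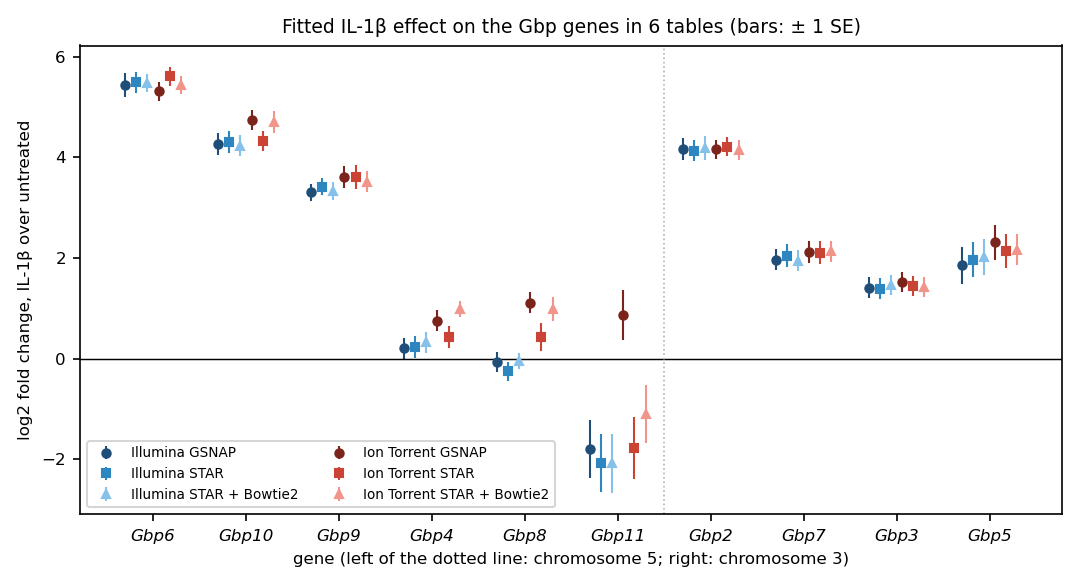
Fitted log2 fold change of each Gbp gene, IL-1β over untreated, in the 6 tables of 2 platforms and 3 aligners, with bars of ± 1 SE. Among the 7 genes called in all 6 tables, Gbp2 runs from 4.13 to 4.22, Gbp10 from 4.23 to 4.74 and Gbp5 from 1.86 to 2.31, while Gbp11 runs from -2.09 to 0.87.

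The promoters of 4 members are shown for the interferon motifs they hold. They are RefSeq promoters on GRCm38.p6, from 250 bases before to 50 bases after the transcription start on the plus strand, and of the 10 members Gbp2, Gbp3, Gbp5 and Gbp7, all on chromosome 3, were matched by symbol, whatever their response. Capitals mark matches to 3 motifs searched on both strands: the core of the interferon-stimulated response element (ISRE, GAAANNGAAA), the gamma-activated site (GAS, TTCNNNGAA) and a κB site (GGGANTTTCC).
Gbp2, chr3:142620413-142620712: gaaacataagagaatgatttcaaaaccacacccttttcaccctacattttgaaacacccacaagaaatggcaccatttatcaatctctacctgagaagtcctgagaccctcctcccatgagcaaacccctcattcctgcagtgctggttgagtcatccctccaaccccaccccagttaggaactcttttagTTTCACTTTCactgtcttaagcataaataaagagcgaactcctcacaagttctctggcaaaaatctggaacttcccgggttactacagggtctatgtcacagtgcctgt
Gbp3, chr3:142559794-142560093: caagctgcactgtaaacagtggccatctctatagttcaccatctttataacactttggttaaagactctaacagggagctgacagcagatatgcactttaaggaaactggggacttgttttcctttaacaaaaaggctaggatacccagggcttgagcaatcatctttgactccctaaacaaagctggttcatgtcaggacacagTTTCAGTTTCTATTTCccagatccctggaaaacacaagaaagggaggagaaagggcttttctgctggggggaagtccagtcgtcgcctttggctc
Gbp5, chr3:142496684-142496983: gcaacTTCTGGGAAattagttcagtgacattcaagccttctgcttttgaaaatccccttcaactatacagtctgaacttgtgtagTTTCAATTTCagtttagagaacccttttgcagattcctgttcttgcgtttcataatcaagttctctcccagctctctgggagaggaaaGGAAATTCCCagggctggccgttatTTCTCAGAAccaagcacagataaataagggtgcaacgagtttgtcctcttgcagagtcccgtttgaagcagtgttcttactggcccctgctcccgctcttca
Gbp7, chr3:142530086-142530385: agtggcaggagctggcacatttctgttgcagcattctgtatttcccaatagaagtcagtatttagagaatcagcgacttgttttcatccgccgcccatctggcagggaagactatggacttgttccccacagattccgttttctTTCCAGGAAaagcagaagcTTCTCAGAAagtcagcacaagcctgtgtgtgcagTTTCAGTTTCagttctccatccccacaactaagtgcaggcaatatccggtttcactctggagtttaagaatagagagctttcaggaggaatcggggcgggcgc

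All 4 promoters held an ISRE core, at 59 bases (Gbp2), 45 and 39 bases (Gbp3, as overlapping matches), 165 bases (Gbp5) and 53 bases (Gbp7) before the start. Of 32851 mouse promoters in the table, 3.44% held it. A 2nd start of Gbp3 held none of the 3 motifs. Gbp5 and Gbp7 each held 2 GAS matches, a motif found in 8.30% of all promoters. Gbp5 was the only one of the 4 with a κB match, at 77 bases before the start, found in 0.411% of all promoters. Gbp1 (Gbp2b in RefSeq), a gene of the same cluster that fell with IL-1β, also held an ISRE core, at 137 bases.

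The other 3 members, all on chromosome 5, were not called higher in all tables. Gbp4 had 87, 52, 89, 77 and 45 reads in the treated and 72, 64, 78, 48 and 79 in the untreated mice of the Illumina GSNAP data, and the groups overlapped. Its log2 fold change was 0.21 to 0.32 in the Illumina tables, none of them called. With Ion Torrent it was 0.76 ± 0.21 under GSNAP (adjusted p = 0.00887), 0.43 ± 0.22 under STAR (adjusted p = 0.133) and 0.99 ± 0.16 under STAR + Bowtie2 (adjusted p = 0.000136). The rank test called it with STAR + Bowtie2 and not with GSNAP.

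Gbp8 was likewise called in the same Ion Torrent tables as Gbp4. Its Illumina GSNAP counts were 40, 41, 41, 22 and 24 with IL-1β and 42, 43, 35, 35 and 43 without, a log2 fold change of -0.07 ± 0.20. In the Ion Torrent GSNAP data the same mice had 92, 71, 103, 80 and 58 reads with IL-1β and 52, 43, 27, 38 and 46 without. There the groups did not overlap, and the log2 fold change was 1.12 ± 0.20 (adjusted p = 0.00034). It was called with Ion Torrent STAR + Bowtie2 (0.98 ± 0.23, adjusted p = 0.00263) and not with Ion Torrent STAR (0.43 ± 0.27, adjusted p = 0.225).

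Gbp11 and Gbp8 were the members whose fitted direction turned between tables, and only Gbp11 was called lower in any of them. In the Illumina GSNAP data the treated mice had 17, 14, 23, 19 and 21 reads and the untreated mice 55, 11, 62, 211 and 30, and the lowest count of all was that of an untreated mouse, UNT_9575. With Ion Torrent STAR the treated mice held 8 to 22 reads and the untreated mice 10 to 195. With Ion Torrent GSNAP the treated mice held 93, 101, 130, 91 and 82 reads, several times more, while the untreated mice held 45, 11, 40, 182 and 21. The groups overlapped in all 6 tables.

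The edgeR test called Gbp11 lower in 4 tables, where 1 of 10 members compares with a background of 23.9% (Illumina GSNAP), 22.9% (Illumina STAR), 24.4% (Illumina STAR + Bowtie2) and 21.8% (Ion Torrent STAR) of all genes called lower. Its log2 fold changes there were -1.80 ± 0.58, -2.08 ± 0.58, -2.09 ± 0.58 and -1.77 ± 0.61, with adjusted p = 0.0194, 0.00873, 0.0084 and 0.0276. It was not called with Ion Torrent GSNAP (0.87 ± 0.50, adjusted p = 0.174) or with Ion Torrent STAR + Bowtie2 (-1.10 ± 0.57, adjusted p = 0.132), where 0 members were called lower against 23.9% and 24% of all genes. Neither the rank test nor limma-voom called it lower in any table, and limma-voom called it higher with Ion Torrent GSNAP (1.52, adjusted p = 0.0159). UNT_9580 held the most Gbp11 reads of the untreated mice in all 6 tables. Without that mouse the log2 fold change was -0.88 with Illumina GSNAP (adjusted p = 0.0755), -0.64 with Ion Torrent STAR (adjusted p = 0.254) and 1.93 with Ion Torrent GSNAP (adjusted p = 0.000135, higher with IL-1β). The lower calls held without it with Illumina STAR (-1.19, adjusted p = 0.0224) and Illumina STAR + Bowtie2 (-1.17, adjusted p = 0.0179). The Ion Torrent STAR call was also lost without ILB_9577 (adjusted p = 0.0617) or ILB_9582 (adjusted p = 0.0558), and without UNT_9575 Gbp11 was called lower with Ion Torrent STAR + Bowtie2 (-1.36, adjusted p = 0.0408).

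**Figure D4:**
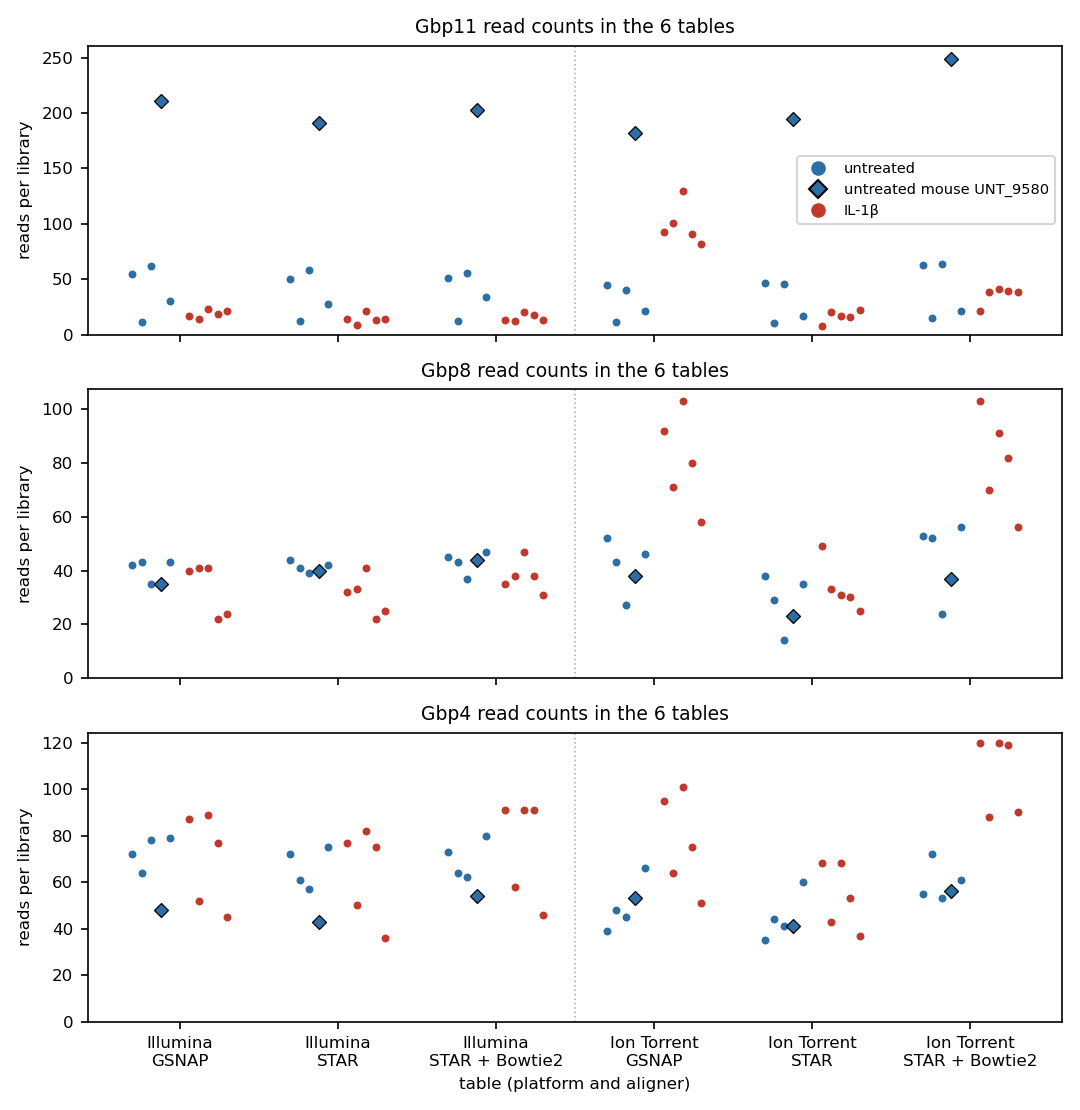
Reads per library of Gbp11, Gbp8 and Gbp4 in the 6 tables (linear scale from 0), with 1 point per mouse and the untreated mouse UNT_9580 as an outlined diamond. Gbp11 in the treated mice is at 82 to 130 reads with Ion Torrent GSNAP and at 8 to 41 in the other 5 tables, and UNT_9580 has the highest Gbp11 count of the untreated mice in every table.

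Whether the IL-1β effect differed between platforms on the same RNA was tested with a platform-by-treatment term, fitted per aligner over 20 libraries, each mouse being a block. With GSNAP 2 members were called, Gbp11 and Gbp8, where 0.0642% of all genes were. The Ion Torrent log2 fold change minus the Illumina one was 2.70 ± 0.20 for Gbp11 (adjusted p = 7.62e-08), where the fitted directions were opposite, and 1.19 ± 0.22 for Gbp8 (adjusted p = 0.0329). The Gbp8 call was lost with limma-voom (adjusted p = 0.0800) and when any of 6 single mice was left out (adjusted p = 0.0548 to 0.0906). No member was called with STAR (background 0.00642%), where the terms were 0.38 ± 0.30 for Gbp11 and 0.71 ± 0.26 for Gbp8, or with STAR + Bowtie2 (background 0.077%), where they were 1.03 ± 0.25 and 1.04 ± 0.22. At an unadjusted p under 0.05 in edgeR, Gbp8 passed with STAR, and Gbp4, Gbp8, Gbp10 and Gbp11 passed with STAR + Bowtie2. Of all 15578 genes, 1090 passed this looser threshold with STAR and 1210 with STAR + Bowtie2. DESeq2 and limma-voom called no member with these aligners either. Gbp10 had a term of 0.46 ± 0.11 under GSNAP, 0.04 ± 0.11 under STAR and 0.46 ± 0.11 under STAR + Bowtie2, and was not called in any of them. Without the mouse in the model no member was called with any aligner, and the GSNAP terms were 2.66 ± 0.88 for Gbp11 (adjusted p = 1) and 1.18 ± 0.28 for Gbp8 (adjusted p = 0.814).

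The paralogs gained and lost reads between aligners within the same library. Ratios of a gene's count to its GSNAP count in the same library are given for the treated mice, beside the median ratio over genes averaging 50 reads or more. In the Illumina data the median gene kept 0.923 of its GSNAP reads with STAR and 0.994 with STAR + Bowtie2. Gbp6 had 1.14 to 1.21 times its GSNAP reads with STAR and 1.15 to 1.21 times with STAR + Bowtie2, Gbp10 had 1.04 to 1.08 and 1.07 to 1.11 times, and Gbp11 had 0.643 to 0.913 and 0.619 to 0.947 times. All 5 treated libraries thus moved the same way for each of these genes. Gbp11 had only 9 to 23 reads in these treated libraries.

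The shifts were larger in the Ion Torrent data, where the median gene had 0.818 of its GSNAP reads with STAR and 1.05 times with STAR + Bowtie2. With STAR, 5% of the 10318 genes compared kept no more than 0.0337 of their GSNAP reads, so that losses as large as those below also occurred outside the family. Treated mice held 8 to 22 Gbp11 reads with STAR, which is 0.086 to 0.268 of the GSNAP count, and 0.226 to 0.463 of it with STAR + Bowtie2. In the untreated mice the same ratios were 0.810 to 1.15 and 1.0 to 1.60, and the ratios of the treated and untreated mice did not overlap, a difference that was not tested. Gbp10 kept 0.555 to 0.681 of its GSNAP reads with STAR in the treated and 0.780 to 0.842 in the untreated mice. Gbp6 instead had 1.05 to 1.11 times its GSNAP reads with STAR and 1.66 to 1.83 times with STAR + Bowtie2 in the treated mice, and 0.681 to 1.06 (median 0.893) and 1.38 to 1.82 times in the untreated mice.

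Other members also differed between aligners in the Ion Torrent data. Gbp8 kept 0.301 to 0.533 of its GSNAP reads under STAR and 0.883 to 1.12 under STAR + Bowtie2 in the treated mice, and Gbp4 had 0.672 to 0.725 and 1.19 to 1.76 times. On chromosome 3, Gbp2 had 0.872 to 0.924 and 1.12 to 1.19 times its GSNAP reads, and Gbp3 had 0.811 to 0.865 and 0.992 to 1.12 times. Gbp7 had 0.680 to 0.784 and 1.05 to 1.10 times and Gbp5 0.692 to 0.791 and 0.988 to 1.18 times, so that under STAR they lost about as large a share of reads as Gbp4. Summed over the 4 chromosome 3 members the ratios were 0.798 to 0.851 and 1.10 to 1.14, beside 0.818 and 1.05 for the median gene. Summed over the 6 chromosome 5 members they were 0.803 to 0.886 and 1.45 to 1.52.

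**Figure D5:**
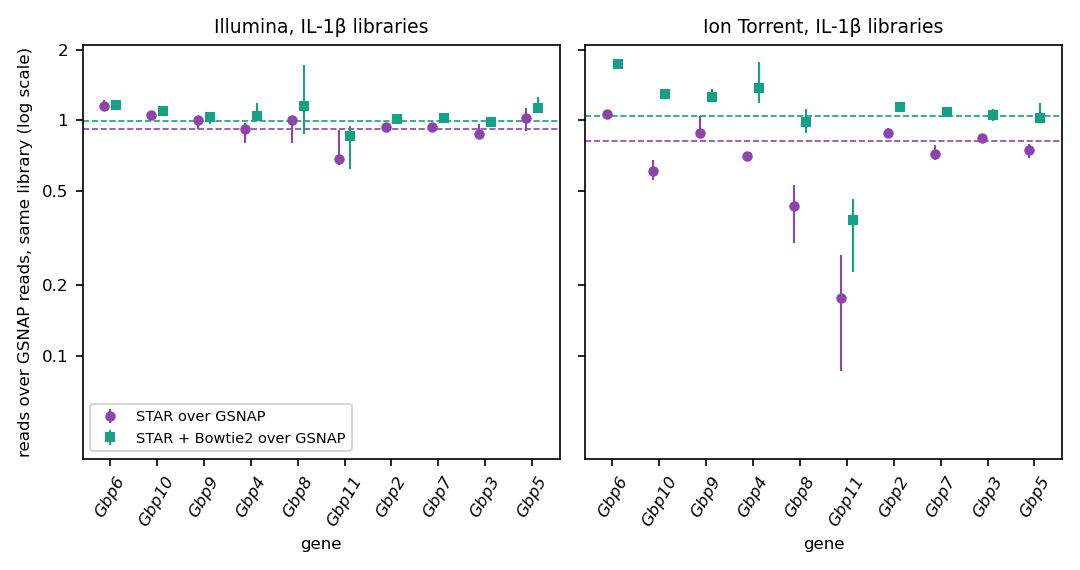
Reads of each Gbp gene under both STAR pipelines over its GSNAP reads in the same treated library (log scale), as the median and the range of the 5 treated mice, with dashed lines at the median over all genes averaging 50 reads or more. In the Ion Torrent panel Gbp11 lies at 0.086 to 0.463 and Gbp6 at 1.05 to 1.83, and among the chromosome 3 genes the STAR values run from 0.680 (Gbp7) to 0.924 (Gbp2).

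The family as a whole took 499.8 to 809 CPM in the treated and 58.6 to 78.3 in the untreated mice of the Illumina GSNAP data, a ratio of means of 9.83. Over the 6 tables this ratio was 9.83 to 13.2. The ratio was 5.55 to 6.80 for the chromosome 3 members and 13.6 to 18.1 for those of chromosome 5. Gbp6 and Gbp10 together made up 62.1 to 70.0% of the Gbp reads in treated and 17.9 to 29.0% in untreated mice with Illumina GSNAP. Gbp11 made up 0.207 to 0.373% in treated mice and 1.61 to 28.4% in untreated mice, the upper value being that of UNT_9580.

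Compared per length, as CPM per kilobase of exon (Illumina GSNAP), Gbp6 had the highest level in treated mice with a median of 61.2. It was followed by Gbp2 with 36.2, Gbp10 with 27.9, Gbp7 with 12.0, Gbp9 with 11.5 and Gbp3 with 4.51. Gbp6 did not overlap with Gbp2 in these levels (55.3 to 82.4 against 22.8 to 47.9), and Gbp2 and Gbp10 overlapped, as did Gbp7 and Gbp9. The remaining 4 members had medians of 1.16 to 1.51. With Ion Torrent GSNAP the order was Gbp6 with 42.3, Gbp10 with 33.2 and Gbp2 with 33.1.

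The treated mice differed from each other in a way that several members shared. ILB_9583 had the lowest treated count of Gbp2, Gbp5, Gbp6, Gbp7, Gbp9 and Gbp10 in all 6 tables. ILB_9582 was the highest for Gbp2, Gbp3, Gbp7 and Gbp9, and ILB_9579 for Gbp6 and Gbp10, again in all 6 tables. Since the tables rest on the same 10 RNA samples, this repeats across tables what each mouse's RNA held and adds no mice.

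Of 7456 other genes averaging 100 reads or more in every table, the 5 whose deviations from the treatment group means followed the mean deviation of the Gbp genes best over the 10 mice were Efha1, Rnf125, Ube2l6, Gclm and Alcam. Their Pearson r, averaged over the 6 tables, was 0.905, 0.897, 0.896, 0.876 and 0.874. They were picked for this likeness, so no test applies. Ube2l6 is the conjugating enzyme for the interferon-induced modifier Isg15, and Efha1 is a regulator of mitochondrial calcium uptake. The log2 fold change with Illumina GSNAP was -0.83 for Efha1, -0.27 for Rnf125, 0.50 for Ube2l6, -0.80 for Gclm and 0.28 for Alcam.

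A list of 18 genes held interferons, their receptors, kinases and transcription factors, and also Socs1, Nlrc5 and Ptpn2. Of these 18 genes 16 were detected, and 7 to 9 of them were called higher and 2 lower, depending on the table. Of all detected genes, 20.3 to 23.7% were called higher and 21.8 to 24.4% lower, which is the background for this and the following lists. Their median log2 fold change was 0.40 to 0.53, where the median of all genes was -0.01 to 0. Called higher in all 6 tables were 7 of them, led by Ptpn2, a phosphatase that restrains JAK-STAT signaling (log2 fold change 1.46 to 1.68), the interferon gamma receptor chain Ifngr2 (0.83 to 0.94) and Stat2 (0.63 to 0.68). The 2 called lower in every table were Irf1, a transcription factor that drives Gbp genes (fell by 1.08 to 1.16), and Irf2 (fell by 0.68 to 0.73). Socs1 was called higher with Illumina GSNAP (log2 fold change 2.22) and in every Ion Torrent table (2.47 to 2.61), and not in the other Illumina tables. Ifng was below the detection filter and Ifnb1 had no reads in any library.

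Of the other interferon-induced GTPases, 10 of 11 in the tables were detected, and 5 to 7 were called higher and 1 lower (background 20.3 to 23.7% and 21.8 to 24.4%). Those called higher in all 6 tables were led by Tgtp1 (log2 fold change 2.96 to 3.23), Irgm1 (1.42 to 1.61) and Mx2 (0.64 to 0.96). Tgtp1 has a near-identical copy, Tgtp2, whose log2 fold change ran from -0.68 (Ion Torrent STAR, not called) to 1.62 (Ion Torrent STAR + Bowtie2, edgeR adjusted p = 0.000259). The split of reads between Tgtp1 and Tgtp2 is uncertain. Gbp1 was called lower by edgeR in all 6 tables, with a log2 fold change of -2.72 to -0.87. Its mean was 3.6 reads in treated and 27.4 in untreated mice with Illumina GSNAP. With Ion Torrent GSNAP the means were 13 and 26.4 reads (edgeR adjusted p = 0.0379), and there the rank test called 0 genes of this list lower. The coding sequence of Gbp1 matched that of Gbp2 at 83.4% of aligned bases.

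Among 9 inflammasome partners, 3 or 4 were called higher and 0 to 3 lower, against a background of 20.3 to 23.7% and 21.8 to 24.4%. With so few genes nothing is read from these counts about the list. Called lower with Illumina GSNAP, but not in all 6 tables, were Casp1 (log2 fold change -0.80), Il18 (-0.82) and Aim2 (-0.92). Gasdermin D (Gsdmd), the pore former of pyroptosis, had a log2 fold change of 1.15 to 1.37, the inflammatory caspase Casp4 1.02 to 1.32, and Nek7 1.01 to 1.19, each called in all 6 tables. Of 10 ubiquitin-like and autophagy genes known to guide GBPs to membranes, 1 or 2 were called higher and 3 or 4 lower, and of 6 enzymes that modify prenylated ends, 1 or 2 were called higher and 1 lower. These shares are near the background, so nothing is read from them about the lists. Map1lc3b rose by 1.25 to 1.40 on the log2 scale, while Atg3 fell by 0.40 to 0.62 and Gabarapl1 by 0.51 to 0.54. Fntb, the beta subunit of farnesyltransferase, rose by 0.75 to 1.02 on the log2 scale, and Rce1 fell by 0.38 to 0.59.

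Markers of other liver cells were counted beside these values, against the same background of 20.3 to 23.7% of genes called higher and 21.8 to 24.4% lower. Of 7 Kupffer cell and macrophage markers, 1 was called higher and 2 or 3 lower, with summed levels of 66.7 to 162 CPM in treated and 120 to 233 in untreated mice (Illumina GSNAP). Of 7 endothelial markers, 2 were called higher and 3 or 4 lower. Of 4 detected T and NK cell markers, 0 or 1 were called higher and 1 lower, and of 3 detected B cell markers, 0 were called higher and 1 to 3 lower. Of 6 hepatocyte markers, 0 were called higher and 3 or 4 lower. Their part in the Gbp values was not tested.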

How the data were processed

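Each library's reads were aligned by the authors to mm9 with GSNAP, STAR 2.5.1b, or STAR followed by Bowtie2 2.2.9. PORT removed ribosomal and mitochondrial reads, re-sampled each table and counted reads per Ensembl gene. The deposited values are these read counts (60 columns, 10 libraries in each of 6 tables). How reads matching several genes were counted, and whether an Illumina count is a read or a read pair, is not given in the sources used here.

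Genes with at least 5 reads in at least 5 libraries of any table were tested (15578 of 37681). IL-1β was compared with untreated in each table by edgeR 4.0.16 (R 4.3.3; TMM scaling, quasi-likelihood test, Benjamini-Hochberg adjustment, threshold 0.05), with one fit per table and 5 mice per group. The platform-by-treatment term was fitted per aligner over 20 libraries with the mouse as a block, since each mouse gave RNA to both platforms. Deviations from the group means correlated between platforms with r = 0.562 to 0.728 for 9 mice and 0.199 to 0.249 for UNT_9584. DESeq2 1.42.0, limma-voom (limma 3.58.1), the Mann-Whitney test, other scaling and filters, and leaving out each mouse were alternatives. On simulated counts for the Illumina GSNAP comparison, edgeR recovered 198 of 200 changed genes over 15578 genes and the Mann-Whitney test 0 of 200. The measured Illumina GSNAP counts differ from this setting, as edgeR called 7402 genes there and the Mann-Whitney test 6244. The 0 of 200 therefore does not describe the power of the Mann-Whitney test in the measured data.

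Positions, lengths and coding sequences came from NCBIM37 gene models of an earlier Ensembl release than the authors used, which held 37310 of the 37681 identifiers. Coding sequences were aligned locally. Named are all 10 members, up to 3 genes per direction of each list with the largest Illumina GSNAP log2 fold change among those called in all 6 tables, and the 5 genes most like the members over mice. Ifng, Ifnb1, Socs1, Nlrc5, Tgtp2, the markers and the Gbp8, Gbp4 and Gbp11 details were added with values known. The members and lists were chosen with earlier results of these data known.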

Additional observations from a re-analysis of the deposited data

Results flagged for a closer look

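Of 120 groups of 5 libraries (10 genes, 6 tables, both treatments), 12 (10%) held a library that stood apart by Dixon's criterion, where chance alone flags about 1 in 20. The tables share the same 10 mice, so these are not independent. Gbp11 in UNT_9580 accounted for 6 of them. Its counts were 211, 191 and 203 in the Illumina GSNAP, STAR and STAR + Bowtie2 tables and 182, 195 and 249 in the Ion Torrent ones, while the other untreated mice had 10 to 64.

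UNT_9580 also had the lowest Gbp7 count of the untreated mice with Illumina STAR, 108 reads against 184 to 215. UNT_9574 had the highest untreated Gbp10 counts with Ion Torrent GSNAP (139 reads against 82 to 88) and with Ion Torrent STAR (117 against 64 to 72). It also had the highest untreated Gbp9 count with Ion Torrent STAR + Bowtie2, 69 reads against 37 to 46. Among treated mice, ILB_9582 had 247 Gbp3 reads with Ion Torrent STAR against 115 to 149. ILB_9577 had 21 Gbp11 reads with Ion Torrent STAR + Bowtie2 against 38 to 41.

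The IL-1β effect differed between platforms for Gbp11, by 2.70 on the log2 scale (edgeR, adjusted p = 7.62e-08), and for Gbp8, by 1.19 (adjusted p = 0.0329), in the GSNAP data with the mouse as a block. The Gbp8 call was lost with limma-voom and without any of 6 of the 10 mice.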

How the results depend on the processing

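The 7 members called higher in all 6 tables were called higher in 672 of 672 alternative fits, with a largest adjusted p of 0.0366. The Gbp11 call was less stable. The number of members called lower went from 1 to 0 with the Mann-Whitney test and with limma-voom in the 3 Illumina tables and with Ion Torrent STAR, and it was 0 to 1 when single mice were left out with Illumina GSNAP, Ion Torrent STAR and Ion Torrent STAR + Bowtie2. In these 4 tables the Gbp11 counts of the groups overlapped, and the Mann-Whitney q was 0.166 to 0.373. Over all 6 tables the Mann-Whitney test called 5567 to 6244 of the 15578 genes. The simulation changed only 200 genes, so its 0 of 200 does not bear on the loss of the Gbp11 call. The Gbp8 log2 fold change ran from -0.17 to 0.0334 (Illumina GSNAP) and from -0.14 to 0.0111 (Illumina STAR + Bowtie2) when mice were left out. Members with a called platform term with GSNAP numbered 2 with the replicate block, 0 with no replicate block, 1 with limma-voom and 1 to 2 with mice left out. Gbp8 lost its call without UNT_9575, UNT_9576, ILB_9577, ILB_9579, ILB_9582 or ILB_9583. With STAR + Bowtie2 the number was 0 to 1 (Gbp8 without UNT_9584, adjusted p = 0.0227). The Gbp10 term with STAR ran from -0.0648 to 0.13.

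As CPM, the treated chromosome 5 sum over its GSNAP value was 1.17 (Illumina STAR), 1.10 (Illumina STAR + Bowtie2), 1.0 (Ion Torrent STAR, against 0.844 in counts) and 1.37 (Ion Torrent STAR + Bowtie2). With the Mann-Whitney test in the Illumina GSNAP table, genes higher were 5 of the interferon signal list, 2 of the other GTPases and 0 of the prenylation enzymes (1 with library totals), and 0 Kupffer markers were lower. In the interferon signal list 3 genes were lower by this test. Of all 15578 genes the Mann-Whitney test called 2233 higher and 4011 lower there, and the fit with library totals called 2874 higher. Scaling by library totals shifted the median log2 fold change of all genes by -0.11 to -0.09 and the share of calls that were higher from 49.8 to 38.8% (Illumina GSNAP). The cause of these changes was not tested. Counts of 8 to 23 Gbp11 reads limit the precision of its values, and intervals between tables cannot be read as independent because the RNA is shared.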
